A study of Mus musculus with 9 samples.

Results

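Gpr83, Gpr183, Gpr174, Gpr18, Gpr65, Gpr132, Gpr171 and P2ry10 encode G-protein-coupled receptors of lymphocytes that sense lipids, protons or peptides or have no settled ligand. They were followed in mouse CD4 T cells on 9 Affymetrix whole-genome arrays, 3 in each of 3 groups. The members are the probe sets whose symbol in the platform annotation is that of a listed receptor, which gave 12 probe sets for the 8 genes, among 45037 probe sets and 18193 named genes in all. Where a gene had 2 probe sets, the brighter by its mean over the 9 arrays was the main reading, and a cross-hybridising probe set (suffix _x_at) was used only as a check. The 8 genes were chosen on their receptor class with their differences between these groups already known, so the values describe these arrays and the p-values are not independent evidence for any gene.

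The pltTGFβ-iTreg and purTGFβ-iTreg groups are labelled as induced regulatory T cells, made from sorted CD4+EGFP– spleen T cells of Foxp3EGFP reporter mice on a C57BL/6 background. Culture lasted 72 hours on plate-bound anti-CD3 at 2.5 µg/ml. The medium held IL2 at 100 U/ml and anti-CD28 at 1 µg/ml. The TGFβ that drives conversion to regulatory T cells came from freeze-thaw lysates of wild-type mouse platelets in pltTGFβ-iTreg and as purified TGFβ1 (5 ng/ml) in purTGFβ-iTreg. The third group, Tconv, is named for conventional T cells. A treatment note attached to all 9 samples has the Tconv cells receiving TGFβ1 as well, so their culture is not settled by the labels. The labels give neither the TGFβ dose in the lysate cultures nor a sort for the reporter before RNA was taken. The series text calls the arrays biological replicates without saying whether they came from separate animals, so the p-values measure the spread between these arrays.

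Arrays of 1 group correlated at 0.994 to 0.998 over all probe sets. Of 6 measured T cell markers, Cd4 and Cd5 were called lower in both iTreg groups against Tconv, Cd2 was called higher in pltTGFβ-iTreg, and Cd3d, Cd3e and Cd3g did not pass. Cd4 averaged 8.06, 7.95 and 8.67 log2 units in pltTGFβ-iTreg, purTGFβ-iTreg and Tconv (log2 differences from Tconv -0.62 and -0.72). Foxp3, the defining factor of regulatory T cells, averaged 3.86, 3.77 and 3.79 in the same order and did not separate the groups. These means lay below the median of every array (4.46 to 4.56), so a difference in Foxp3 may have been missed. The name of the iTreg groups therefore rests on the labels. Xist, which marks cells of female animals, averaged 3.94, 3.61 and 10.81, and the Y-linked Eif2s3y averaged 8.95, 9.01 and 2.70, so both comparisons with Tconv also compare male with female cells. Effects of sex and of culture cannot be told apart there, while both iTreg groups read as male. In bulk RNA, fewer cells that express a gene and less RNA per cell cannot be told apart.

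As background, most of these receptors belong to a branch of rhodopsin-like receptors related to the purinergic P2Y family. On binding a lipid, proton or peptide they act through G proteins that raise or lower cyclic AMP or release calcium, and so steer migration and set activation thresholds of lymphocytes. Gpr183 binds an oxysterol and guides B cells, dendritic cells and helper T cells to the edges of follicles, Gpr174 and P2ry10 bind lysophosphatidylserine, Gpr65 and Gpr132 belong to the proton-sensing group, and Gpr83 is known as a transcript enriched in regulatory T cells.

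The promoter windows of 4 receptors are shown because these genes had the largest differences between groups or, for Gpr174, opposite ones against Tconv in the iTreg groups. RefSeq windows on GRCm38.p6, from 250 bases before to 50 bases after the annotated start, were at hand for 7 of the 8 genes, with 2 windows for P2ry10. Sequences run 5′ to 3′ on the strand of the gene, and capitals mark matches on either strand to the SMAD box CAGAC, the cyclic AMP response core TGACG or the TATA box TATAAA.
Gpr83, chr9:14859960-14860259, + strand: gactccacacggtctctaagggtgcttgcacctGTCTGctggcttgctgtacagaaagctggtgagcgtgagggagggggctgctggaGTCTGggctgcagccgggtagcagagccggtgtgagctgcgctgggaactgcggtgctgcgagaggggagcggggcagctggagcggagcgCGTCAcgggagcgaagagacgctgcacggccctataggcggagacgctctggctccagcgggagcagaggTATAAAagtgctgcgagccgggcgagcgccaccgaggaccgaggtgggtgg
Gpr65, chr12:98268385-98268684, + strand: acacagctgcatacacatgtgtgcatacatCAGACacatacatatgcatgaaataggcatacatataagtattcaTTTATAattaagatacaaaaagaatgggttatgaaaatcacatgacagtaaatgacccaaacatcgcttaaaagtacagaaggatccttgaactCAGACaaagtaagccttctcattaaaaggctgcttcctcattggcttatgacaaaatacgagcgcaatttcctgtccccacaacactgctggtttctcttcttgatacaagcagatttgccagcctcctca
Gpr183, chr14:121965144-121965443, - strand: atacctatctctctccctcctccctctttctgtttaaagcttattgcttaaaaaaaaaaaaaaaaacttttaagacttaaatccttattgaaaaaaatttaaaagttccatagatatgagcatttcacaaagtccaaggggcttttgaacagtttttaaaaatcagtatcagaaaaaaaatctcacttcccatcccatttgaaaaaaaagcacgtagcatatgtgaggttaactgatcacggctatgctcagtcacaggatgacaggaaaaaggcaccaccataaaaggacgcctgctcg
Gpr174, chrX:107284096-107284395, + strand: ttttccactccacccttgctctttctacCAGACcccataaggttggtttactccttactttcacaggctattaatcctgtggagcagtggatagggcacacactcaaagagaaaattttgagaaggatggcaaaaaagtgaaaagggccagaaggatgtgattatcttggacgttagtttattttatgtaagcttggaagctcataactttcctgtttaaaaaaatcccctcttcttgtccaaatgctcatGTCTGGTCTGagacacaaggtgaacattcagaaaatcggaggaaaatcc

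The SMAD box was found in 4 of the 8 receptor windows, those of Gpr83, Gpr174, Gpr65 and Gpr132, against 49.6% of all 32851 windows. Of its 3 matches in the Gpr174 window, 2 stand side by side just after the annotated start. The cyclic AMP response core was found in 3 receptor windows, against 20.8% of all windows, and the letters of the TATA box in 2, against 13.6%. The TATA match lay at base -1 from the annotated start in Gpr83, and at -175 on the opposite strand in Gpr65. The Gpr83 window had 67% G and C, above 85.6% of all windows. The windows of Gpr183, Gpr65 and Gpr174 lay at the other end, with 35.3%, 38.3% and 41% G and C, above 3.98%, 7.45% and 12.1% of all windows. The Gpr183 window held none of the 3 motifs. These matches describe the letters in the windows and were not tested for binding.

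Across the comparisons, a gene was called changed in the whole-table fit (limma, Benjamini-Hochberg adjusted p under 0.1 and an absolute log2 difference above 0.5, or about 1.4-fold, the cutoffs named in the series text). In pltTGFβ-iTreg against Tconv, 5 receptors rose, 1 fell and 2 did not pass, where 28.5% of all genes were called, 13.9% as higher and 14.7% as lower. In purTGFβ-iTreg against Tconv, 2 rose, 3 fell and 3 did not pass, where 29.3% of genes were called, 14.5% as higher and 14.9% as lower. In pltTGFβ-iTreg against purTGFβ-iTreg, 4 rose, none fell and 4 did not pass, where 4.11% of genes were called, 1.54% as higher and 2.57% as lower. The median absolute log2 difference of the receptors was 0.71, 0.64 and 0.58 in these comparisons, against 0.30, 0.31 and 0.10 over all genes. Both comparisons with Tconv share its arrays, and the comparison between the iTreg groups uses the iTreg arrays of both. The receptors were not drawn independently of these values. Quantile normalization moved the share of higher calls among all called genes to 38.4% from 48.5% in pltTGFβ-iTreg against Tconv and to 38.6% from 49.3% in purTGFβ-iTreg against Tconv, and left 3 receptors called higher in the first of these. Centring the array medians moved these shares the other way, to 55.3% and 56.5%.

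**Figure D1:**
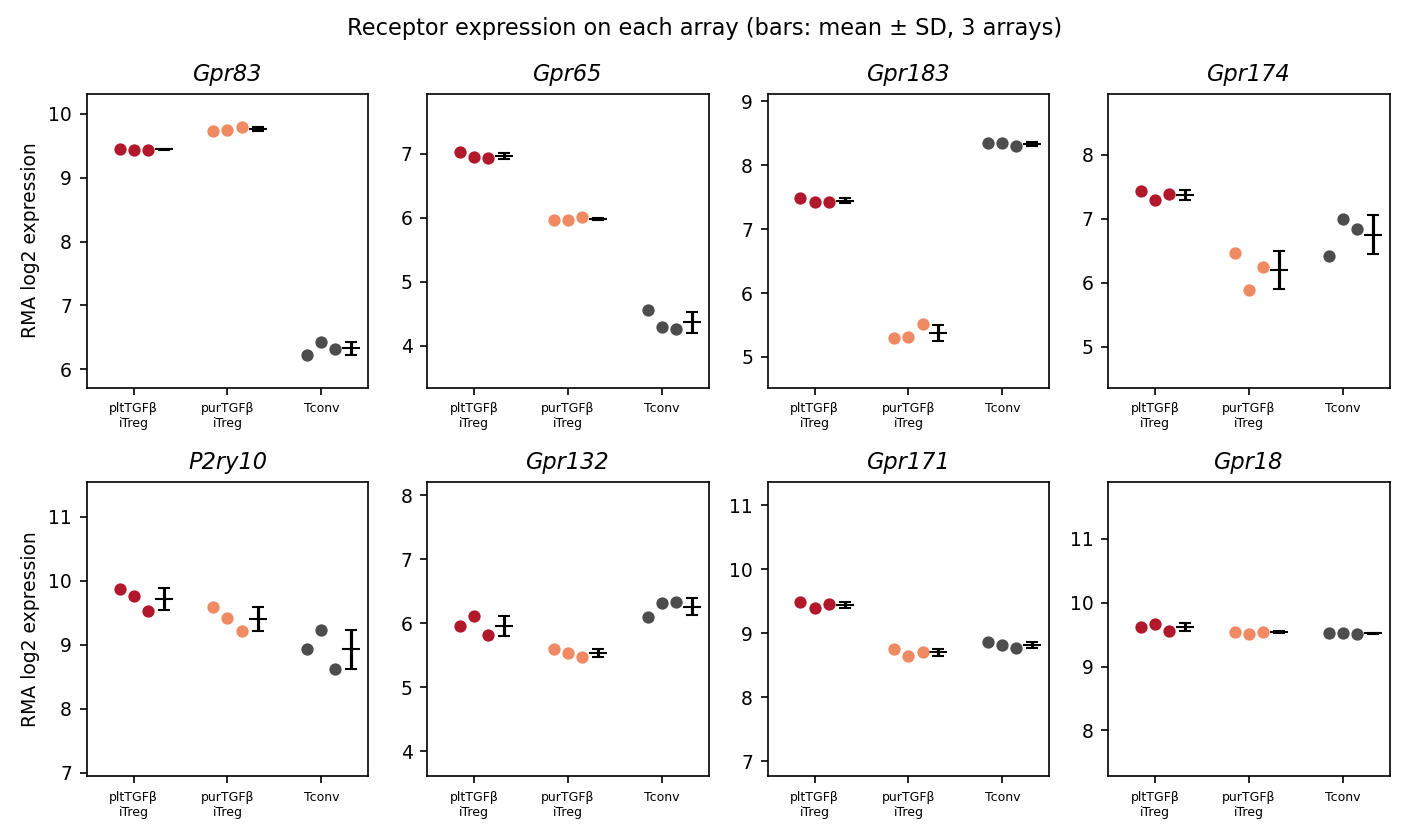
RMA log2 expression (y axis, each panel spanning the same number of log2 units) of the main probe set of each receptor on every array, with pltTGFβ-iTreg, purTGFβ-iTreg and Tconv from left to right and bars for mean ± SD of 3 arrays. Gpr83 and Gpr65 lie higher in both iTreg groups than in Tconv, Gpr183 lies lowest in purTGFβ-iTreg, and Gpr18 stays between 9.50 and 9.67 on all arrays.

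The first question the members answer is how receptors for lipids differed between the cultures. Gpr183 (probe set 1437356_at, chromosome 14), the oxysterol receptor gene, showed the largest difference of any receptor here between the iTreg groups. It read 7.49, 7.42 and 7.42 log2 units on the pltTGFβ-iTreg arrays, 5.29, 5.31 and 5.52 on the purTGFβ-iTreg arrays, and 8.35, 8.35 and 8.30 on the Tconv arrays. No array of any group overlapped another group, and the order was purTGFβ-iTreg, pltTGFβ-iTreg, Tconv from low to high. Gpr183 was 4.19-fold higher in pltTGFβ-iTreg than in purTGFβ-iTreg (log2 difference 2.07 ± 0.08, SE, limma, adjusted p = 1.31e-07), a change larger than that of 99.9% of genes in this comparison. Against Tconv it fell by 2.96 ± 0.08 on the log2 scale in purTGFβ-iTreg, 7.77-fold lower (limma, adjusted p = 3.47e-10). In pltTGFβ-iTreg it fell by 0.89 ± 0.08, 1.85-fold lower than in Tconv (limma, adjusted p = 4.12e-06). The dimmer Gpr183 probe set kept this order, averaging 4.95 ± 0.12, 4.26 ± 0.06 and 5.36 ± 0.09 (SD, n = 3) in pltTGFβ-iTreg, purTGFβ-iTreg and Tconv. Its differences were smaller, at 0.69 for pltTGFβ-iTreg against purTGFβ-iTreg and -1.10 for purTGFβ-iTreg against Tconv, and its difference of -0.41 for pltTGFβ-iTreg against Tconv did not pass the fold cutoff.

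Among the enzymes that make or break down the ligand of Gpr183, 4 of 4 were measured. Ch25h, which hydroxylates cholesterol in the first step of ligand synthesis, rose in both iTreg groups, with 5.81 ± 0.13 in pltTGFβ-iTreg and 6.03 ± 0.08 in purTGFβ-iTreg against 5.16 ± 0.28 in Tconv (SD, n = 3 each). The log2 differences from Tconv were 0.65 ± 0.13 (SE, limma, adjusted p = 0.00146) and 0.88 ± 0.13 (adjusted p = 1.62e-04). The second hydroxylase gene Cyp7b1 averaged 2.98, 2.86 and 2.95, and neither it, Hsd3b7 nor Cyp27a1 passed the test in any comparison. Ch25h differed by -0.22 between the iTreg groups and did not pass.

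Gpr174 (probe set 1440900_at), an X-linked receptor gene for lysophosphatidylserine, stood on opposite sides of Tconv in the iTreg groups. It read 7.44, 7.29 and 7.39 in pltTGFβ-iTreg, 6.47, 5.88 and 6.25 in purTGFβ-iTreg and 6.42, 7.00 and 6.84 in Tconv. The pltTGFβ-iTreg arrays lay above all others, while purTGFβ-iTreg replicate 1 lay just above Tconv replicate 1, so those groups overlapped. The difference between the iTreg groups was 1.18 ± 0.16 on the log2 scale, 2.26-fold higher in pltTGFβ-iTreg (SE, limma, adjusted p = 0.00118), and it stayed between 1.02 and 1.31 when each array was left out in turn. Against Tconv it rose by 0.62 ± 0.16 in pltTGFβ-iTreg (adjusted p = 0.00883) and fell by 0.55 ± 0.16 in purTGFβ-iTreg (adjusted p = 0.0161), both in the limma fit. Both calls against Tconv depended on single arrays. The rise was 0.45 without Tconv replicate 1, and the fall was -0.43 without Tconv replicate 2 and -0.39 without purTGFβ-iTreg replicate 2, all under the fold cutoff. The calls were also lost with quantile normalization for pltTGFβ-iTreg (0.41) and with array medians centred for purTGFβ-iTreg (-0.49). The other Gpr174 probe set, which can cross-hybridise, gave 0.59, -0.55 and 1.14 for the same contrasts and was called in each.

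P2ry10 (probe set 1452815_at), a nearby lysophosphatidylserine receptor gene on the X chromosome, read 9.87, 9.76 and 9.53 in pltTGFβ-iTreg, 9.59, 9.42 and 9.21 in purTGFβ-iTreg and 8.93, 9.24 and 8.62 in Tconv. The pltTGFβ-iTreg arrays were above all Tconv arrays, and the purTGFβ-iTreg arrays overlapped both other groups. P2ry10 rose 1.73-fold in pltTGFβ-iTreg against Tconv (log2 difference 0.79 ± 0.15, SE, limma, adjusted p = 0.00135). In purTGFβ-iTreg its difference from Tconv was 0.48 (95% interval 0.14 to 0.81), just under the fold cutoff, and it reached 0.53 with array medians centred, 0.63 without Tconv replicate 2 and 0.57 without purTGFβ-iTreg replicate 3. Between the iTreg groups the difference was 0.32 (95% interval -0.02 to 0.65) and did not pass. Of 618 X-linked genes measured, 19.4% were called higher in pltTGFβ-iTreg and 19.7% in purTGFβ-iTreg against Tconv, compared with 13.6% and 14.3% of autosomal genes. Called lower were 7.12% and 6.96% of X-linked genes, compared with 15.0% and 15.2% of autosomal genes. Sex and culture cannot be told apart for the differences of both X-linked receptors from Tconv, while the difference of Gpr174 between the iTreg groups lies between arrays that both read as male.

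The other genes of lysophospholipid and sphingolipid sensing moved both ways. Of 11 measured receptors on that list, 3 rose and 3 fell in pltTGFβ-iTreg and 3 rose and 2 fell in purTGFβ-iTreg against Tconv, and 1 fell in pltTGFβ-iTreg against purTGFβ-iTreg. Lpar6, a receptor for lysophosphatidic acid, averaged 6.72 ± 0.19, 7.57 ± 0.09 and 5.18 ± 0.02 in pltTGFβ-iTreg, purTGFβ-iTreg and Tconv (SD, n = 3), and it was the gene that fell between the iTreg groups (-0.85 ± 0.10, SE, limma, adjusted p = 3.44e-04). S1pr1, the sphingosine phosphate receptor gene for exit from lymph nodes, averaged 6.25 ± 0.02, 6.72 ± 0.06 and 5.08 ± 0.10 and rose in both iTreg groups against Tconv. P2ry10b, which lies between P2ry10 and Gpr174, averaged 4.23, 4.16 and 3.28 and rose against Tconv by 0.95 and 0.88 in the same order. S1pr2, a sphingosine phosphate receptor gene, fell against Tconv, with log2 differences of -0.70 and -0.86. Of 5 genes of lysophosphatidylserine metabolism, 1 passed between the iTreg groups. Pla1a, a phospholipase that releases lysophosphatidylserine, averaged 5.26 ± 0.12 in pltTGFβ-iTreg and 4.55 ± 0.13 in purTGFβ-iTreg, against 4.67 ± 0.18 in Tconv, and rose by 0.71 ± 0.11 between the iTreg groups (SE, limma, adjusted p = 0.00256). Its rise of 0.59 against Tconv was 0.49 without Tconv replicate 2. Lpcat3, which adds a fatty acid back to lysophospholipids, averaged 8.47, 8.90 and 9.26 and fell by 0.78 in pltTGFβ-iTreg against Tconv.

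Prostanoid and leukotriene receptors, the other lipid receptors on the lists, gave 1 rise and 3 falls among 11 measured genes in each iTreg group against Tconv, and none passed between the iTreg groups. Ptgir, the prostacyclin receptor gene, averaged 5.28 and 5.13 in pltTGFβ-iTreg and purTGFβ-iTreg, against 7.51 in Tconv, and was 4.70-fold and 5.23-fold lower than in Tconv. Ptger2, a receptor gene for prostaglandin E, averaged 8.53 and 8.12, against 9.35 in Tconv. Cysltr1, an X-linked leukotriene receptor gene, was the riser, at 4.92 and 4.68 against 3.88 in Tconv. That Tconv mean lay below the medians of the Tconv arrays (4.52 to 4.56), and sex and culture cannot be told apart for this rise.

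**Figure D2:**
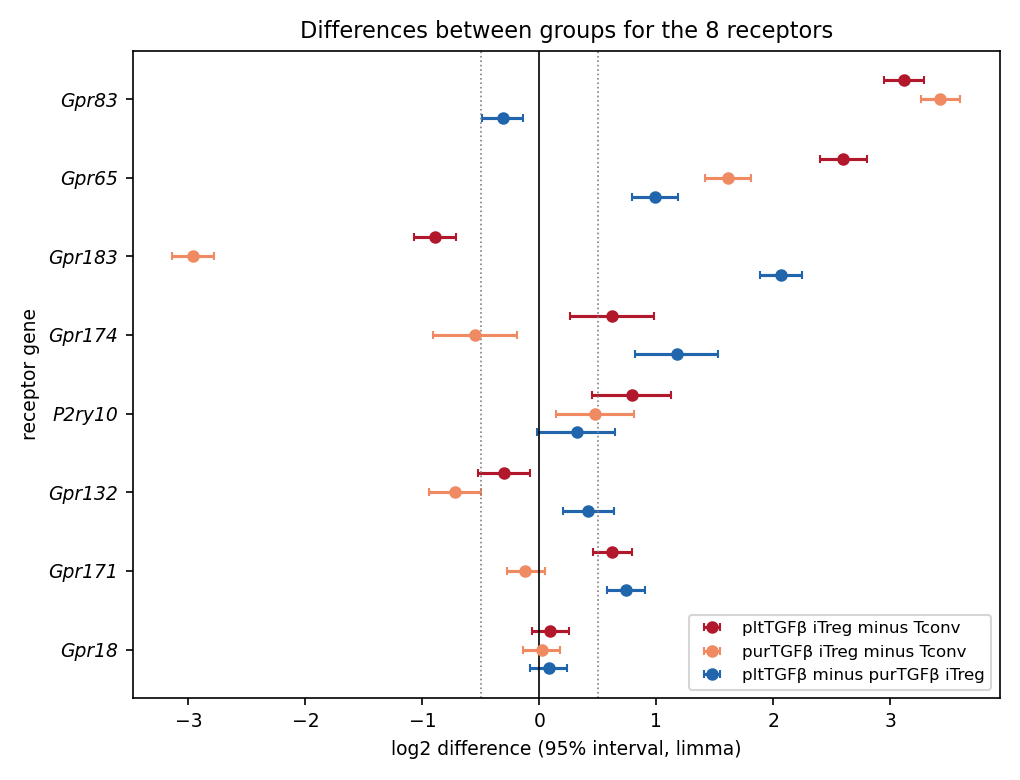
Log2 differences (x axis, points with 95% intervals from the limma fit) of the 8 receptors for pltTGFβ-iTreg minus Tconv, purTGFβ-iTreg minus Tconv and pltTGFβ-iTreg minus purTGFβ-iTreg, with dotted lines at the fold cutoff. Gpr83 and Gpr65 lie to the right in both comparisons with Tconv, Gpr183 to the left, and Gpr174 on either side of 0.

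Of the proton-sensing group, Gpr65 (probe set 1449175_at, chromosome 12), whose product raises cyclic AMP when the medium turns acid, separated all 3 groups. It read 7.03, 6.94 and 6.94 in pltTGFβ-iTreg, 5.97, 5.97 and 6.00 in purTGFβ-iTreg and 4.56, 4.29 and 4.26 in Tconv. No groups overlapped, and the order was Tconv, purTGFβ-iTreg, pltTGFβ-iTreg from low to high. The Tconv readings lay at or below the medians of those arrays (4.52 to 4.56), and the gene was read by 1 probe set only. Gpr65 rose 6.07-fold in pltTGFβ-iTreg (log2 difference 2.60 ± 0.09, SE, limma, adjusted p = 3.47e-09) and 3.06-fold in purTGFβ-iTreg against Tconv (1.61 ± 0.09, adjusted p = 6.39e-08). Between the iTreg groups it was 1.98-fold higher in pltTGFβ-iTreg (0.99 ± 0.09, limma, adjusted p = 5.50e-05), with values of 0.96 to 1.00 when each array was left out in turn.

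Gpr132 (probe set 1444233_at, chromosome 12), which is tied to lysophospholipids and oxidised fatty acids, moved less. It read 5.95, 6.11 and 5.81 in pltTGFβ-iTreg, 5.59, 5.54 and 5.48 in purTGFβ-iTreg and 6.10, 6.32 and 6.34 in Tconv. The purTGFβ-iTreg arrays were below all others, and the pltTGFβ-iTreg and Tconv arrays overlapped. Gpr132 fell by 0.72 ± 0.10 on the log2 scale in purTGFβ-iTreg against Tconv (SE, limma, adjusted p = 9.80e-05). Its differences of -0.30 for pltTGFβ-iTreg against Tconv and 0.42 (95% interval 0.20 to 0.64) for pltTGFβ-iTreg against purTGFβ-iTreg were under the fold cutoff. The dimmer Gpr132 probe set averaged 3.63, 3.77 and 3.87, passed in no comparison and had the opposite sign between the iTreg groups (-0.14), and with the mean of both probe sets the fall in purTGFβ-iTreg was -0.41, under the cutoff. Gpr4, the other proton sensor measured, averaged 5.58, 5.50 and 5.84 and passed in no comparison.

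Gpr83 (probe set 1423415_at, chromosome 9), an orphan or peptide receptor gene known from regulatory T cells, was bright in both iTreg groups. It read 9.45, 9.44 and 9.44 in pltTGFβ-iTreg, 9.73, 9.75 and 9.80 in purTGFβ-iTreg and 6.23, 6.43 and 6.32 in Tconv. The groups did not overlap, and the iTreg arrays lay about 3 log2 units above Tconv. Its differences from Tconv were 3.12 ± 0.08 in pltTGFβ-iTreg and 3.43 ± 0.08 in purTGFβ-iTreg (SE, limma, adjusted p = 2.68e-10 and 6.29e-11), or 8.67-fold and 10.8-fold, larger in absolute size than those of 99.8% and 99.7% of genes. Gpr83 was the only receptor with a lower value in pltTGFβ-iTreg than in purTGFβ-iTreg (-0.31, 95% interval -0.49 to -0.14, limma, adjusted p = 0.0377), which was under the fold cutoff. The second Gpr83 probe set gave 3.00, 3.41 and -0.41 for the same contrasts.

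Gpr171 (probe set 1438439_at, chromosome 3), a relative of the P2Y12 receptor with a neuropeptide ligand reported in mouse brain, was set apart in pltTGFβ-iTreg. It read 9.48, 9.39 and 9.45 in pltTGFβ-iTreg, 8.76, 8.65 and 8.70 in purTGFβ-iTreg and 8.87, 8.82 and 8.77 in Tconv. The pltTGFβ-iTreg arrays were above all others, and the purTGFβ-iTreg arrays lay just below those of Tconv. Gpr171 rose 1.67-fold in pltTGFβ-iTreg against purTGFβ-iTreg (log2 difference 0.74 ± 0.07, SE, limma, adjusted p = 1.13e-04) and 1.54-fold against Tconv (0.62 ± 0.07, adjusted p = 3.31e-05), a value that quantile normalization lowered to 0.49. The difference of purTGFβ-iTreg from Tconv was -0.12 (95% interval -0.28 to 0.05). The 3 measured P2Y12-like genes beside it, P2ry12, P2ry13 and P2ry14, averaged 2.77 to 3.27 in every group, and none passed.

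Gpr18 (probe set 1439141_at, chromosome 14), whose ligand is disputed, read 9.62, 9.67 and 9.55 in pltTGFβ-iTreg, 9.55, 9.51 and 9.55 in purTGFβ-iTreg and 9.52, 9.53 and 9.50 in Tconv. No difference passed, and the 95% intervals were -0.06 to 0.25 for pltTGFβ-iTreg against Tconv, -0.14 to 0.18 for purTGFβ-iTreg against Tconv and -0.08 to 0.24 between the iTreg groups. Gpr18 and Gpr183 are neighbours on chromosome 14, both inside the span of Ubac2, yet Gpr183 differed between every pair of groups.

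Counted over arrays rather than by the fit, the 2 groups were apart for 7 of 8 receptors in pltTGFβ-iTreg against Tconv (59.0% of all genes), 5 in purTGFβ-iTreg against Tconv (62.7%) and 7 in pltTGFβ-iTreg against purTGFβ-iTreg (28.2%). Gpr132 was the overlap in the first comparison and P2ry10 in the last.

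**Figure D3:**
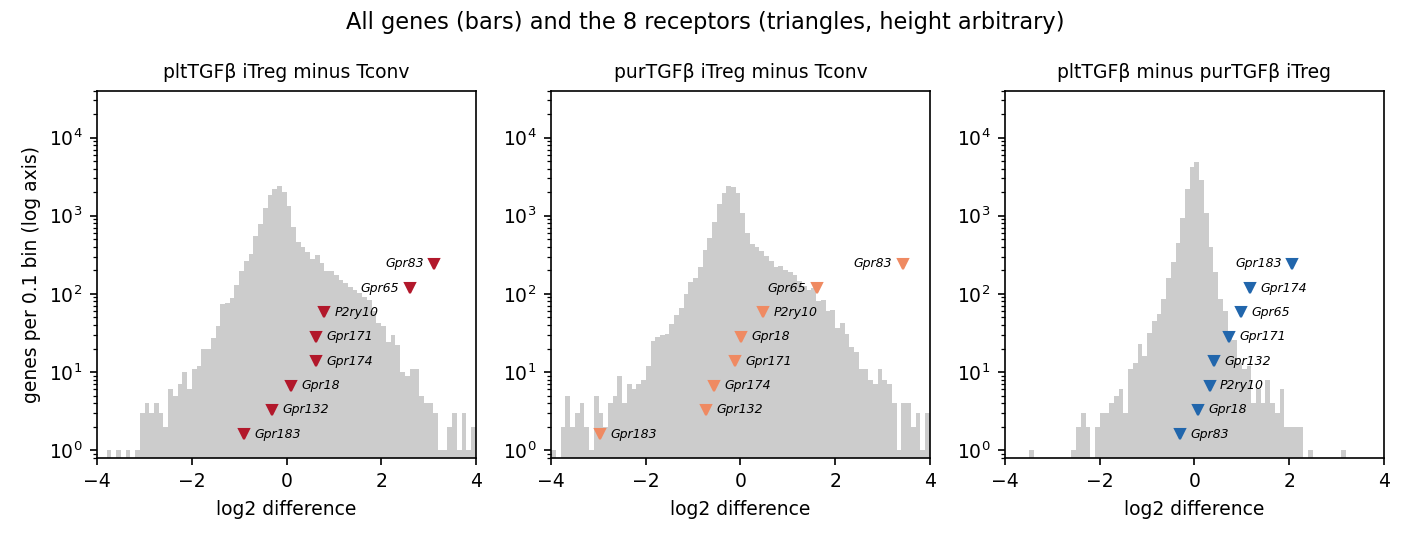
Histograms of the log2 difference of 18193 genes (grey bars of width 0.1, log count axis) for each comparison, with the 8 receptors as triangles whose height has no meaning. Between the iTreg groups the genes crowd around 0 with a median of 0.01, and Gpr183 (2.07) and Gpr174 (1.18) lie far in the right tail.

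**Figure D4:**
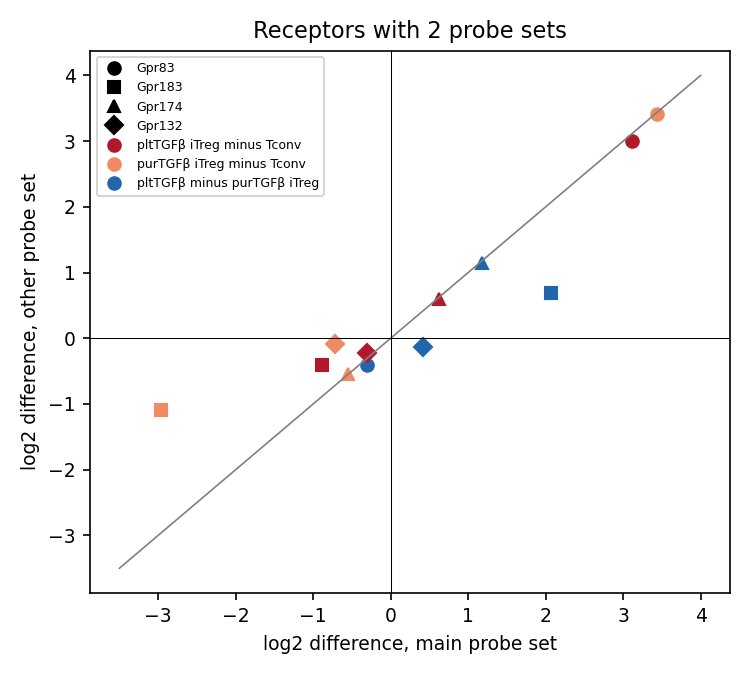
Log2 differences of the main (x axis) against the other probe set (y axis) for the 4 receptors with 2 probe sets, coloured by comparison, with the line of equal values. Gpr83 and Gpr174 lie near the line, Gpr183 has the same sign at smaller size on its dimmer probe set, and Gpr132 has the opposite sign between the iTreg groups.

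The signalling genes that these receptors work through were described from lists of general knowledge, so the counts below are over whole lists. For scale, 28.5% of all genes were called in pltTGFβ-iTreg and 29.3% in purTGFβ-iTreg against Tconv, and 4.11% between the iTreg groups. Of 9 G protein alpha subunit genes, 3 rose and none fell in each iTreg group against Tconv. Gnaq, the subunit that activates phospholipase C, averaged 7.83 and 7.52 in pltTGFβ-iTreg and purTGFβ-iTreg, against 5.46 in Tconv, 5.17-fold and 4.17-fold higher, and its other probe sets gave log2 differences of 0.38 to 2.70 and 0.19 to 2.45. Gnai3, which inhibits adenylyl cyclase, was 3.50-fold and 3.18-fold higher (log2 differences 1.81 and 1.67), and its cross-hybridising probe set gave 0.78 and 0.83. Gna13 rose by 1.05 and 1.03 on its brightest probe set, but its other probe sets ranged between -0.82 and 1.42 in pltTGFβ-iTreg against Tconv, and the mean of all its probe sets was under the cutoff in both iTreg groups (0.48 and 0.47). Gna12, its close relative, was the one subunit gene that passed between the iTreg groups, at 6.04 ± 0.01 in pltTGFβ-iTreg and 6.79 ± 0.26 in purTGFβ-iTreg (SD, n = 3 each; log2 difference -0.75, limma, adjusted p = 0.00215), which was -0.47 and under the fold cutoff with the mean of its probe sets. The subunit genes Gnas, which raises cyclic AMP, and Gnai2 passed in no comparison on their brightest probe sets. In pltTGFβ-iTreg and purTGFβ-iTreg against Tconv, the other Gnas probe sets gave -0.06 to 0.51 and -0.16 to 0.83. The other Gnai2 probe set gave -0.52 and -0.30.

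RGS proteins switch G protein signals off. Of 8 RGS genes, 3 rose and none fell in each iTreg group against Tconv. Rgs1 averaged 11.35 and 11.32 in pltTGFβ-iTreg and purTGFβ-iTreg, against 8.63 in Tconv, 6.59-fold and 6.47-fold higher. Rgs16 was 2.73-fold and 2.51-fold higher. Rgs2 averaged 7.16 ± 0.11, 6.43 ± 0.08 and 5.85 ± 0.29 and was the RGS gene that passed between the iTreg groups (0.73 ± 0.13, SE, limma, adjusted p = 0.00587). Its rise of 0.58 in purTGFβ-iTreg against Tconv was 0.41 without Tconv replicate 1. Of 6 receptor kinase and arrestin genes, 3 fell and none rose in pltTGFβ-iTreg against Tconv, 1 fell in purTGFβ-iTreg against Tconv and 1 fell between the iTreg groups. The arrestin gene Arrb1, whose product uncouples receptors from G proteins, averaged 4.60, 5.14 and 5.38. Its difference of -0.54 between the iTreg groups was -0.47 without pltTGFβ-iTreg replicate 1. The fall of Arrb2 in pltTGFβ-iTreg against Tconv was -0.48 without Tconv replicate 3.

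Genes that make, break down or respond to cyclic AMP, the messenger of Gpr65 and Gpr174, moved both ways. Of 18 measured, 7 rose and 4 fell in pltTGFβ-iTreg against Tconv, 6 rose and 5 fell in purTGFβ-iTreg against Tconv, and 3 rose and 3 fell between the iTreg groups. Crem, a factor induced by cyclic AMP, averaged 8.54 ± 0.04 in pltTGFβ-iTreg and 7.76 ± 0.02 in purTGFβ-iTreg, against 7.02 ± 0.21 in Tconv (SD, n = 3 each). It rose 1.72-fold between the iTreg groups (limma, adjusted p = 7.06e-04), while the mean of its probe sets gave a log2 difference of 0.36, under the cutoff. Creb1, the factor that cyclic AMP activates, averaged 9.27 and 9.19, against 7.16 in Tconv (log2 differences 2.11 and 2.03), but its other 5 probe sets gave smaller differences, of 0.09 to 1.70 and 0.11 to 1.76. The phosphodiesterase genes Pde4d and Pde7a were lower in pltTGFβ-iTreg than in purTGFβ-iTreg, by log2 differences of -0.65 and -0.54. The phosphodiesterase genes Pde3b and Pde8a were higher there, by 0.53 and 0.65, and the dimmer Pde8a probe set gave 0.28. The Pde4d difference was -0.32 with the mean of its probe sets. The Pde7a difference was -0.48 without pltTGFβ-iTreg replicate 3, and that of Pde3b was 0.47 without purTGFβ-iTreg replicate 2 and 0.48 without pltTGFβ-iTreg replicate 3.

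**Figure D5:**
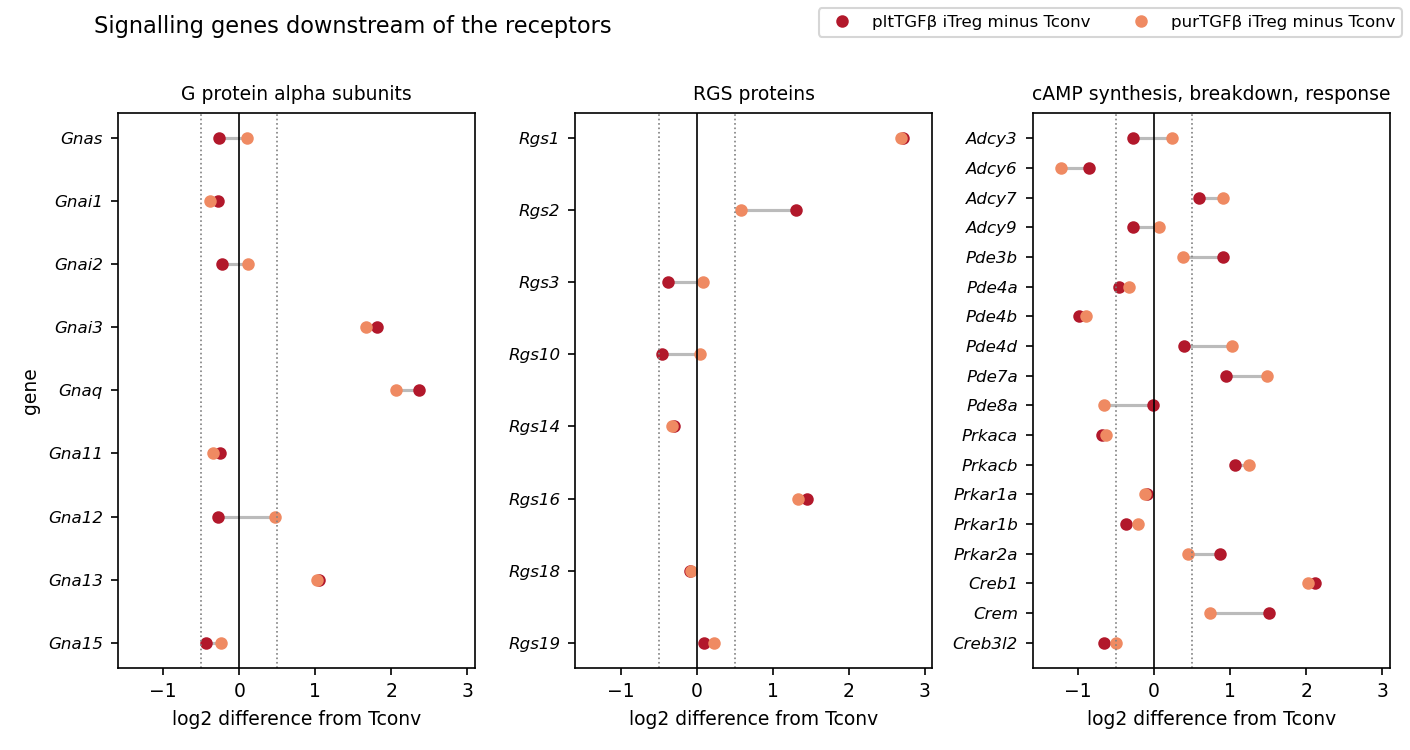
Log2 differences from Tconv (x axis) of 9 G protein alpha subunit genes, 8 RGS genes and 18 cyclic AMP genes in pltTGFβ-iTreg and purTGFβ-iTreg, joined by a line for each gene, with dotted lines at the fold cutoff. Rgs1 and Gnaq lie far to the right in both iTreg groups, and Rgs2 and Crem lie further right in pltTGFβ-iTreg.

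Several of these receptors are also made by B cells, myeloid cells or cytotoxic cells, so markers of those cells are given beside them. Of 7 measured B cell markers, 1 passed against Tconv, Cd79b, which was lower in both iTreg groups, and the summed log2 level of the list was 27.6 to 28.9 in pltTGFβ-iTreg, 27.6 to 28.9 in purTGFβ-iTreg and 30.9 to 31.3 in Tconv. The 8 myeloid markers summed to 31.1 to 31.9, 31.7 to 32.6 and 32.0 to 33.4, with Mpeg1 higher in both iTreg groups against Tconv and lower in pltTGFβ-iTreg than in purTGFβ-iTreg, and Tyrobp lower in pltTGFβ-iTreg than in Tconv. The 3 NK cell markers summed to 11.9 to 12.3, 13.2 to 13.6 and 10.1 to 10.8, with Klrd1 called in every comparison, at 6.06 in pltTGFβ-iTreg, 7.34 in purTGFβ-iTreg and 4.16 in Tconv. The 2 CD8 markers summed to 9.9 to 10.3, 10.1 to 10.3 and 11.1 to 11.4, with Cd8b1 lower in both iTreg groups. The 5 platelet markers summed to 21.3 to 22.2, 21.1 to 21.8 and 22.9 to 23.8, with Itga2b lower in both iTreg groups against Tconv and Gp6 lower in pltTGFβ-iTreg, and none passed between the iTreg groups. No value is 0 on this scale and the table has no detection calls, so absence of a marker cannot be read. The part of other cell types in the receptor values was not tested.

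The genes most like each called receptor were found by the root mean square difference over the 9 arrays after each gene was set to its own mean. The receptors themselves and genes with predicted or clone names were left out of this search. Cyp11a1 was nearest to Gpr83, at 0.0731 log2 units, where Gpr83 itself varied by 1.55 around its mean, followed by Fcrl1 (0.162) and Plod2 (0.172). Crtam (0.118), Tnfsf14 (0.173) and Lad1 (0.239) were nearest to Gpr183, which varied by 1.24. Myo6 (0.0880), Ctla4 (0.204) and Neto2 (0.220) were nearest to Gpr65, and Enpep (0.144), Tex15 (0.173) and S100a6 (0.184) to Gpr174. Crtam, a surface receptor gene of activated T cells, averaged 7.38 in pltTGFβ-iTreg, 5.57 in purTGFβ-iTreg and 8.40 in Tconv. Nearest to Gpr132, Gpr171 and P2ry10, which varied by at most 0.376, were Wdr55, Znhit6 and Dbt, at 0.0641, 0.0741 and 0.0925. Shmt1 and Ppan followed for Gpr132, Noc3l and Fastkd2 for Gpr171, and Rnft1 and Baz2b for P2ry10, at 0.0779 to 0.123.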

How the data were processed

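RNA of 9 mouse CD4 T cell samples was measured on Affymetrix arrays. The authors deposited log2 expression values computed by Robust Multichip Analysis (RMA) with Expression Console software, per the series text. RMA corrects background and fits 1 value per probe set, so low values are compressed and folds of dim genes understated. Partek is named in the submitters' processing notes. The number of arrays limits the precision. The 64 control probe sets were left out. Of the 45037 tested, 34945 had 1 symbol, 932 several and 9160 were not listed in the platform annotation. RefSeq held the gene identifiers of 34741 of the probe sets with 1 symbol, and 0 symbols were updated. For genes with several probe sets the brightest was used, _x_at sets last.

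1 model (limma 3.58.1, R 4.3.3) over all 9 arrays had a mean per group. Contrasts were two-sided, with moderated variances and Benjamini-Hochberg adjustment over all probe sets, and intervals at 95%. With 3 arrays a side an exact permutation p is at least 0.1, so none was used. The fit was tested on simulated data. Figures used Python 3.11.15 and matplotlib 3.10.9.

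The members, lists and cutoffs were chosen with earlier results of these data known. Text names all members, at most 4 called genes a list by lowest adjusted p (further list genes and neighbours were named after their values were seen), the 3 genes most like each called receptor, and label checks. Listed genes with no probe set under that symbol were left out, and 1 further list is not reported here. Same-numbered replicates of Tconv and the iTreg groups correlated at -0.12 to 0.09 in their deviations from group means, and those of the iTreg groups at 0.09 to 0.26. Differently numbered replicates were not compared, so these values do not settle whether numbers mark pairs. Numbers were not taken as pairs in the main fit. Quantile normalization and centring of array medians were applied as alternatives on top of the deposited RMA values. Other alternatives were a filter, variance models, fits on 2 groups, a replicate block, cutoffs, the mean of probe sets and leaving out each array.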

Additional observations from a re-analysis of the deposited data

How the results depend on the processing

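Of 456 recomputed values of single receptors, 434 kept their direction and side of the cutoffs, 15 lost a call, 7 gained one and none reversed. The filter, the variance models, the fits on 2 groups and the replicate block keep every log2 difference by design. Leaving out an array of the group outside a comparison does so too. These settings could change a call only through its adjusted p, so the 434 partly reflect the design. Of 222 recomputed counts, 205 stayed within 1.5 times. With quantile normalization, 3 receptors rose in pltTGFβ-iTreg against Tconv (5 in the fit reported), since Gpr174 and Gpr171 came under the fold cutoff. Under a stricter rule (adjusted p below 0.05, log2 difference beyond 1 either way), 2 receptors rose and 0 fell in pltTGFβ-iTreg against Tconv. Of the 45037 probe sets tested, 3407 were then higher and 897 lower. In purTGFβ-iTreg against Tconv, 2 receptors rose and 1 fell (3653 probe sets higher, 984 lower). In pltTGFβ-iTreg against purTGFβ-iTreg, 2 rose and 0 fell (103 probe sets higher, 191 lower). With no fold cutoff, 5 receptors were higher and 2 lower in pltTGFβ-iTreg against Tconv (9748 probe sets higher, 14198 lower), 3 higher and 3 lower in purTGFβ-iTreg against Tconv (9879 higher, 15077 lower), and 5 higher and 1 lower between the iTreg groups (1395 higher, 1891 lower). The replicate block left 5 and 1, 2 and 3, and 4 and 0 receptors higher and lower in the 3 comparisons, and changed no receptor's call. Of 45037 probe sets, 6748 and 4633, 6970 and 4673, and 531 and 933 were then higher and lower in the same comparisons. Without the block, 523 and 941 passed between the iTreg groups. Leaving out each array in turn gave 4 to 5 receptors higher and 1 lower in pltTGFβ-iTreg against Tconv (6619 to 6940 probe sets higher, 4572 to 5137 lower). In purTGFβ-iTreg against Tconv it gave 2 to 3 higher and 2 to 3 lower (6702 to 7228 probe sets higher, 4338 to 5318 lower). Between the iTreg groups it gave 4 higher and 0 lower (484 to 574 probe sets higher, 865 to 966 lower). The second probe sets of Gpr132 and Gpr183 were the dimmest receptor readings, at 3.76 and 4.86 over the 9 arrays, and with no detection calls their distance from background was not measured.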

Other observations

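Genes next to the receptors were read after the receptor values had been seen. Itm2a, which lies beside Gpr174 and encodes a membrane protein, averaged 11.16 ± 0.02 in pltTGFβ-iTreg, 10.25 ± 0.07 in purTGFβ-iTreg and 11.80 ± 0.11 in Tconv (SD, n = 3 each). It rose by 0.91 ± 0.08 between the iTreg groups (SE, limma, adjusted p = 4.51e-05), as Gpr174 did, but was lower than Tconv in both. Kcnk10, a potassium channel gene beside Gpr65, averaged 3.78, 3.63 and 5.52 in pltTGFβ-iTreg, purTGFβ-iTreg and Tconv and fell by 1.74 and 1.89 log2 units against Tconv, where Gpr65 rose. Jag2, a Notch ligand gene beside Gpr132, averaged 6.09, 6.14 and 6.76 and fell by 0.67 and 0.61 against Tconv. Izumo1r, a folate receptor gene known from regulatory T cells that lies beside Gpr83, averaged 10.66, 10.80 and 11.16 and passed in no comparison, although its difference of -0.50 between pltTGFβ-iTreg and Tconv lay at the fold cutoff and passed it with quantile normalization (-0.53) and when any of 4 arrays was left out (-0.57 and -0.53 without Tconv replicates 1 and 2, -0.53 and -0.55 without pltTGFβ-iTreg replicates 1 and 2). Ubac2, whose span holds Gpr183 and Gpr18, averaged 9.06, 9.08 and 9.42 and passed in no comparison.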
